A study of Homo sapiens with 10 samples.

Results

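GDAP1L1 and FUT1 are 2 of the 78894 genes in a table of bulk mRNA levels from HEK293T, a widely used line of human embryonic kidney origin, grown in media that differed in L-cysteine. They were chosen by their measured values, because their levels were low in complete medium and high in cysteine-free medium. Those values are therefore given as a description, without a test. The label under which they were chosen, induced without cysteine, covers only a piece of their pattern: both genes were higher still when cysteine was in excess.

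The cells spent 24 h in medium without L-cysteine (0X, 2 libraries), in complete medium (1X, 4 libraries) or in medium with excess L-cysteine (10X, 4 libraries), and no gene was altered in any group. The numbers of 0X and 1X libraries differ from the replicate number in the study's figure of this comparison, and the sources do not explain why. The study's RNA methods refer back to a starvation treatment without naming which of 2 earlier sections applied. In the cell culture section, the only 1 with a 10-fold cysteine medium, all cells were first seeded in the complete formulation. Its base medium lacked cysteine and methionine, with methionine added back to every group. The starvation assay section used complete DMEM for controls and dialyzed serum in the starvation medium, so base medium and serum may have differed between groups. Poly(A)-selected RNA was sequenced as paired reads. The labels call the libraries biological replicates of 1 cell line and do not say which cultures shared a day, so p-values measure the spread between these samples.

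FUT1 encodes a Golgi fucosyltransferase that caps galactose at the ends of glycans with fucose and so makes the H antigen, the precursor of the A and B blood group antigens. It is the form known from red cells and vessel walls, while its paralog FUT2, the secretor enzyme, makes the same structure in epithelia and secretions. GDAP1L1 encodes a protein with a glutathione transferase fold that is expressed mainly in neural tissue. Its paralog GDAP1 sits in the outer mitochondrial membrane, takes part in mitochondrial fission and is mutated in a form of Charcot-Marie-Tooth neuropathy. Cells that lack an amino acid switch on the integrated stress response, in which the transcription factor ATF4 is made and binds, with C/EBP partners, to a composite element known as CARE (C/EBP-ATF response element).

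In GRCh38 with GENCODE release 44, FUT1 (ENSG00000174951) occupies chr19:48748011-48755390 on the minus strand, with 4343 exon bases in 4 blocks. FGF21, an endocrine growth factor made under stress and fasting, starts 133 bases beyond the 5′ end of FUT1 and runs the other way, so the genes share 1 divergent promoter interval. GDAP1L1 (ENSG00000124194) occupies chr20:44247099-44280947 on the plus strand, with 3404 exon bases in 7 blocks. Neither gene shares exon bases with another gene of that annotation, which does not hold 17431 of the gene IDs in the table. Of the 75-base stretches of their transcripts, 0 of 3723 for GDAP1L1 and 2 of 4367 for FUT1 also occurred in transcripts of another gene, and FUT2 was not among those genes.

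The RefSeq promoter windows of GRCh38.p14, from 250 bases before to 50 bases after a start, show where the loci differ in sequence. They are printed because 1 of them carries a CARE match, searched as TGATGNAA on both strands and shown in capitals. The FUT1 window is chr19:48755309-48755608 read on the minus strand, and the GDAP1L1 window is chr20:44246849-44247148 on the plus strand.
FUT1: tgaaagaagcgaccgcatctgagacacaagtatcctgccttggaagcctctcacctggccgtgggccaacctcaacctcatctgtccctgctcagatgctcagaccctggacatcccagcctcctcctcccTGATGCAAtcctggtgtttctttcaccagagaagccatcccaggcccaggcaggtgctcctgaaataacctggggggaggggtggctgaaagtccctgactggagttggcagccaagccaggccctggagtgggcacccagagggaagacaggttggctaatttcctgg
GDAP1L1: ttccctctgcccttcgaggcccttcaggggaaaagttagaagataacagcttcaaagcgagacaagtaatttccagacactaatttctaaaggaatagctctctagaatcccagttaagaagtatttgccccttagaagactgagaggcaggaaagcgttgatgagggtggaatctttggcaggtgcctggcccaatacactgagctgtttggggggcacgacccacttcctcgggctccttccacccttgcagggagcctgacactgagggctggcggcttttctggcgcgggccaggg
The FUT1 match lies at chr19:48755470-48755477, inside the 133-base gap. It is 119 bases upstream of the FUT1 start and, on the opposite strand, 54 bases upstream of the FGF21 start, so both windows hold the same 8 bases. These starts are those of RefSeq. The RefSeq start of FUT1 lies inside its GENCODE gene body, which bounds the gap. A second FUT1 window around an internal start (chr19:48752592-48752891) and the GDAP1L1 window hold no such letters. Other motifs were also searched. The second FUT1 window holds TGACNNNGC, found in 13.35% of windows, and the GDAP1L1 window holds CCAAT, found in 34.61%. Counts per gene do not show which FUT1 start was used. In the whole table of promoters, 1270 of 35116 windows (3.62%) hold a match. A match is a string of letters, and no binding was measured.

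For comparison, the same element is shown with its flanks in genes described further on. ASNS makes asparagine, CARS1 charges tRNA with cysteine, CHAC1 degrades glutathione, CEBPG is a C/EBP partner of ATF4, and C1orf226 is an uncharacterized gene whose levels tracked GDAP1L1. Each line is read in the direction of the motif.
FUT1 and FGF21: tcctcctcccTGATGCAAtcctggtgtt
ASNS: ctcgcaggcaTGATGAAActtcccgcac
CARS1: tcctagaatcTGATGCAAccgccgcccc
CHAC1: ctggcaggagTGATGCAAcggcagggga
CEBPG: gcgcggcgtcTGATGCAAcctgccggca
C1orf226: gtgcttacggTGATGTAAaaatgtcatg
The core read TGATGCAA in FUT1, CARS1, CHAC1 and CEBPG, TGATGAAA in ASNS and TGATGTAA in C1orf226. Among 10 fucosyltransferase genes with a window, FUT1 included, only FUT1 and FUT8 (the enzyme of core fucosylation) held a match. Of the integrated stress response genes described further on, 6 of 19 with a window did, against 4.46% of all 27305 genes with a window. FGF21 is among these 6, through the match it shares with FUT1. The list was made of ATF4 targets and other stress genes, so its share is no independent evidence. ATF3 (core TGATGGAA) and SLC3A2 (core TGATGTAA) are among these 6 and are not printed above.

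GDAP1L1 was near the floor of detection in complete medium and was plainly transcribed in both other media. The deposited normalized counts (reads divided by a library size factor) were 28.4, 17.3, 27.4 and 17.6 in the 4 complete libraries. In the cysteine-free libraries they were 260 and 270.5, and in the excess libraries 313, 321, 360 and 331. The 3 groups did not overlap in any pairing, and the gap between cysteine-free and complete libraries follows from how the gene was chosen. The share of all genes without overlap was not counted, for this gene or for those below. The means were 22.7 ± 6.1 (SD, n = 4) in complete, 265 ± 7.6 (SD, n = 2) in cysteine-free and 331 ± 20.8 (SD, n = 4) in excess medium. Cysteine-free medium thus stood 11.7-fold and excess medium 14.6-fold above complete medium as ratios of means. On the log2(value + 1) scale these differences were 3.53 (SE 0.28) and 3.84 (SE 0.17). The excess libraries played no part in choosing the gene, but the complete libraries did, so neither difference is tested.

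The step from starved to excess cells was small for GDAP1L1. The cysteine-free mean was 0.801 of the excess mean, a log2 difference of -0.32 (SE 0.10), and each cysteine-free library lay below each excess library. Counting error sets the precision at the low end: the complete libraries held 14 to 27 reads of GDAP1L1, and their exact 95% Poisson intervals, from 7.65 to 39.3 reads between them, overlapped. The cysteine-free libraries held 228 and 248 reads and the excess libraries 295 to 487. These intervals cover counting error only, since reads without molecular identifiers are not independent molecules.

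FUT1 followed the same order with higher levels throughout. Its normalized counts were 89.3, 58.1, 81.2 and 116 in the complete libraries, 789 and 845 in the cysteine-free libraries, and 1358, 1266, 1453 and 1234 in the excess libraries. No library of 1 group reached into another group, which for cysteine-free and complete medium again follows from the choice of the gene. The means were 86.2 ± 24.0 (SD, n = 4), 817 ± 39.5 (SD, n = 2) and 1328 ± 98.7 (SD, n = 4). Ratios of means to complete medium were 9.48 in cysteine-free and 15.4 in excess medium, with log2 differences of 3.27 (SE 0.21) and 3.97 (SE 0.15). Between starved and excess cells the gap was wider than for GDAP1L1, with a cysteine-free mean 0.616 of the excess mean and a log2 difference of -0.70 (SE 0.07).

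Within complete medium FUT1 varied by more than counting error. Replicate 2 held 47 reads, with an interval of 34.5 to 62.5, and replicate 4 held 106, with an interval of 86.8 to 128. GDAP1L1 did not share this order, as its value in replicate 4 was among the lowest. In these bulk libraries, more cells expressing a gene and more RNA per expressing cell cannot be told apart.

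**Figure D1:**
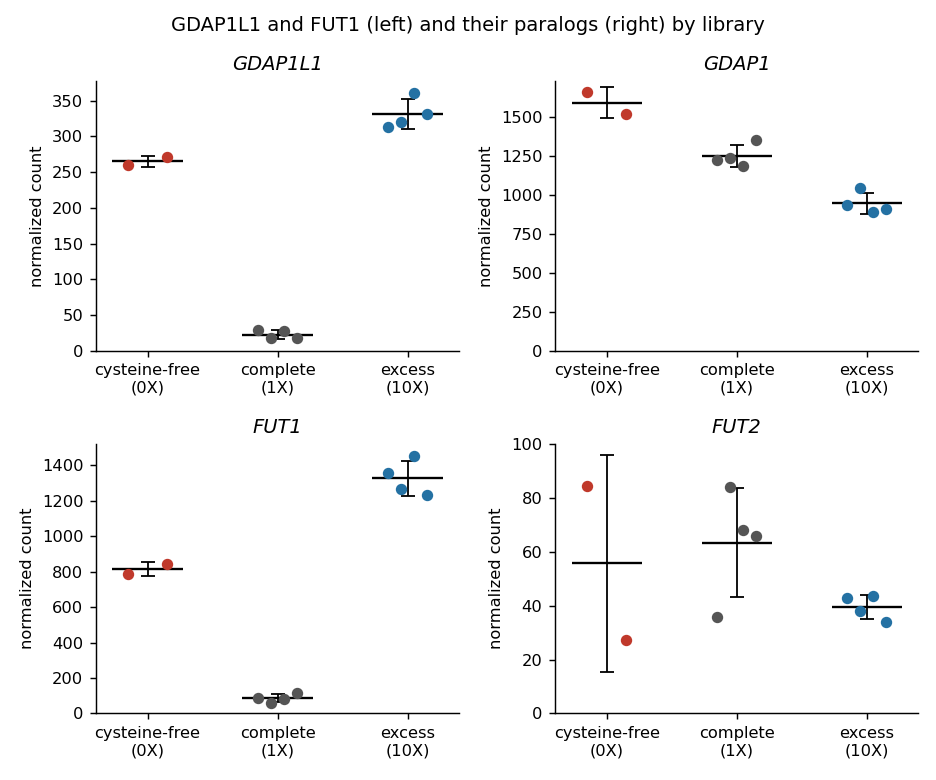
Normalized counts (y axis, starting at 0) of GDAP1L1 and FUT1 on the left and their paralogs GDAP1 and FUT2 on the right, by medium; points are libraries, horizontal lines the mean and bars 1 SD (n = 2, 4 and 4). GDAP1L1 and FUT1 are low in complete medium and high in both other media, GDAP1 steps down from cysteine-free to excess medium, and the FUT2 libraries overlap.

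Set against the 26104 kept genes with a known exon length, the shift moved both genes from the quiet to the middle range. Per kb of exon, GDAP1L1 had a mean normalized count of 6.66 in complete medium, a level above 9.4% of genes, which became 77.9 (above 41.6% of genes) without cysteine and 97.2 (above 45.9%) in excess. FUT1 went from 19.9 per kb (above 21.5% of genes) to 188 (above 59.7%) and 306 (above 71.2%). Ranked from the largest increase down by signed log2 difference between cysteine-free and complete medium, GDAP1L1 was number 8 and FUT1 number 15 of 29045 genes. Among increases in excess medium their places were 33 and 26. These places describe the values that chose the genes.

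The paralogs did not follow. GDAP1, whose exons share 320 bases with JPH1, had normalized counts of 1663 and 1522 in cysteine-free medium, 1228, 1235, 1184 and 1351 in complete medium and 937, 1045, 894 and 907 in excess medium. It was highest without cysteine and lowest in excess, in steps far smaller than those of GDAP1L1, and its 3 groups did not overlap. With limma it rose by 0.35 (log2, SE 0.08, adjusted p = 0.00405) in cysteine-free medium. In excess medium it fell by 0.40 on the log2 scale (SE 0.06, adjusted p = 3.93e-05), so GDAP1 and GDAP1L1 went in opposite directions there. The direct difference between cysteine-free and excess medium was 0.75 (SE 0.07, adjusted p = 6.15e-10). An exact 2-sided permutation test gave the smallest p the designs allow, 0.0667 with 2 against 4 libraries and 0.0286 with 4 against 4. The call in cysteine-free medium was lost without cysteine-free replicate 1 (adjusted p = 0.0927), cysteine-free replicate 2 (0.0266), complete replicate 1 (0.016) or complete replicate 2 (0.0171).

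FUT2 remained a low gene in every medium. Its normalized counts were 84.3 and 27.3 without cysteine, 35.7, 84.0, 68.0 and 65.8 in complete medium, and 43.0, 38.0, 43.5 and 34.0 in excess, and the groups overlapped. The log2 differences from complete medium were -0.33 (SE 0.40, adjusted p = 0.59) and -0.61 (SE 0.24, adjusted p = 0.0366), neither of which passed the threshold of 0.01. Between starved and excess cells the difference was 0.28 (SE 0.31, adjusted p = 0.465). Exact permutation p-values were 0.7333, 0.1143 and 0.6667. Without complete replicate 1 the difference in excess medium was -0.86 (adjusted p = 0.00172), past the threshold. The cysteine-free libraries disagreed about FUT2: without replicate 2 the difference from complete medium was 0.47, and without replicate 1 it was -1.12. Levels of the paralogs can be compared only per length, and per kb of exon FUT1 and FUT2 were close in complete medium, with mean normalized counts of 19.9 and 18.7. In excess medium they were 306 and 11.7. For FUT2, 3.04% of the 75-base stretches also occurred in SEC1P or EIF1B-AS1, so a few of its reads may not be assignable to it alone.

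FGF21, the divergent neighbour of FUT1, was called higher in both media, as was PPP1R15A farther along the chromosome. Its normalized counts were 62.6 and 107 without cysteine, 4.20, 22.2, 8.12 and 26.3 in complete medium, and 300, 366, 354 and 388 in excess. The 3 groups did not overlap, and excess stood well above starvation. With limma, FGF21 rose by 2.65 (log2, SE 0.58, adjusted p = 0.00388) in cysteine-free and by 4.74 (SE 0.38, adjusted p = 1.22e-08) in excess medium. The direct difference was -2.08 (SE 0.15, adjusted p = 1.94e-11), against the value of -0.70 for FUT1. The cysteine-free call rested on both libraries, as the adjusted p was 0.0344 without replicate 1 and 0.102 without replicate 2, and it was 0.161 when low genes were not filtered out. At 4 to 24 reads a library in complete medium, its base level is poorly known.

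On the other side of FUT1, none of the 3 nearest protein-coding genes was called in both media in the fit of all libraries. IZUMO1, a sperm protein gene 1.1 kb away, was measured at 79.7 and 58.9 without cysteine, 21.0 to 73.5 (median 46.3) in complete medium and 45.6 to 77.3 (median 73.3) in excess. Its differences of 0.68 (adjusted p = 0.222) and 0.62 (adjusted p = 0.086) were not called. RASIP1, an endothelial gene 7.4 kb away, rose by 0.61 without cysteine (SE 0.15, adjusted p = 0.00816), a call lost without cysteine-free replicate 1 (0.0734) or 2 (0.0916) or complete replicate 1 (0.0272). In excess it differed by 0.32 (adjusted p = 0.03), which passed without complete replicate 2 (0.40, adjusted p = 0.00938). MAMSTR, a coactivator of muscle genes 28.3 kb away, fell by 1.00 on the log2 scale in excess medium (adjusted p = 3.98e-05) and differed by 0.08 (adjusted p = 0.763) without cysteine. Beyond FGF21 lie BCAT2, the mitochondrial branched-chain aminotransferase, and HSD17B14, a steroid dehydrogenase, at 39.7 and 57.6 kb. BCAT2 differed by 0.03 and -0.16 (adjusted p = 0.893 and 0.142) and HSD17B14 by 0.32 and -0.02 (adjusted p = 0.333 and 0.924), and neither was called in the fit of all libraries. Without complete replicate 4, BCAT2 passed in excess medium at -0.26 (adjusted p = 0.00392).

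Across the 250 kb on each side of FUT1, 25 of 28 named genes were tested. Without cysteine 6 were called, 3 higher and 3 lower, against a background of 15.9% of all 29045 genes in that comparison. That count fell to 0 without either cysteine-free library, to 2 without complete replicate 1 or 2, and to 0 when low genes were not filtered out. FGF21 alone was called with a change of at least 2-fold, against 2.10% of all genes. In excess medium 15 were called, 7 higher and 8 lower, against 46.0% of all genes. Of these, 5 changed at least 2-fold, against 10.1% of all genes: FGF21, PPP1R15A, FAM83E and FTL were higher and MAMSTR was lower.

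PPP1R15A, the GADD34 subunit that dephosphorylates eIF2 and is itself a stress response gene, lies 116.8 kb from FUT1. It rose from 1507 to 1644 normalized counts in complete medium to 8855 to 9936 in excess (log2 2.61, SE 0.05, adjusted p = 8.95e-17). Without cysteine it rose by only 0.34 (adjusted p = 0.00269), a call lost without either cysteine-free library (0.0182 and 0.0783) or complete replicate 2 (0.0134). FTL, the ferritin light chain, rose by 1.14 (SE 0.04, adjusted p = 1.78e-12) in excess and differed by 0.12 (adjusted p = 0.152) without cysteine. FAM83E rose by 2.15 (SE 0.25, adjusted p = 1.55e-06) in excess, from 9.88 to 15.4 normalized counts to 41.8 to 71.2.

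Around GDAP1L1, 8 of 16 named genes within 250 kb were tested. Without cysteine 1 was called, where 15.9% of all genes were: TOX2, an HMG-box transcription factor 177.5 kb away, which rose by 0.50 (SE 0.11, adjusted p = 0.00433). That call was lost without either cysteine-free library (adjusted p = 0.0488 and 0.0602) or without complete replicate 1 (0.0137) or 2 (0.0153). In excess medium 5 were called, all higher, against 46.0% of all genes, and 1 of them changed at least 2-fold, against 10.1%. The count was 3 without excess replicate 3. No test compared the neighbourhoods of the 2 genes. TOX2 (0.32, adjusted p = 0.00395) was among them, and its call was lost without complete replicate 2 (0.0112) or excess replicate 2 (0.0118), 3 (0.0147) or 4 (0.0167). The nearest protein-coding genes, OSER1, an oxidative stress-responsive gene 36.3 kb away, and FITM2, a lipid droplet protein gene 21.9 kb away, did not move with GDAP1L1 without cysteine. OSER1 differed by -0.21 (adjusted p = 0.108) and FITM2 by -0.10 (adjusted p = 0.467). In excess OSER1 rose by 0.92 (SE 0.06, adjusted p = 2.76e-09), while FITM2 differed by 0.08 (adjusted p = 0.307). JPH2, a junctional protein gene of muscle, was too low to test, and R3HDML was listed at 0 in every library.

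HNF4A, a hepatocyte and proximal tubule transcription factor 74.8 kb from GDAP1L1, separated the media in which GDAP1L1 was high. It had normalized counts of 2.28 and 4.36 without cysteine, 4.20, 0, 0 and 6.58 in complete medium, and 93.1, 104, 107 and 126 in excess. Only the excess libraries were above the trace level. The increase in excess was 5.43 (log2, SE 0.55, adjusted p = 2.46e-07), or 3.24 with a pseudocount of 10, since complete medium held 0 to 6 reads. Without cysteine the difference was 0.74 (SE 1.04, adjusted p = 0.642). The direct difference between starved and excess cells was -4.68 (SE 0.28, adjusted p = 3.68e-13), against -0.32 for GDAP1L1.

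**Figure D2:**
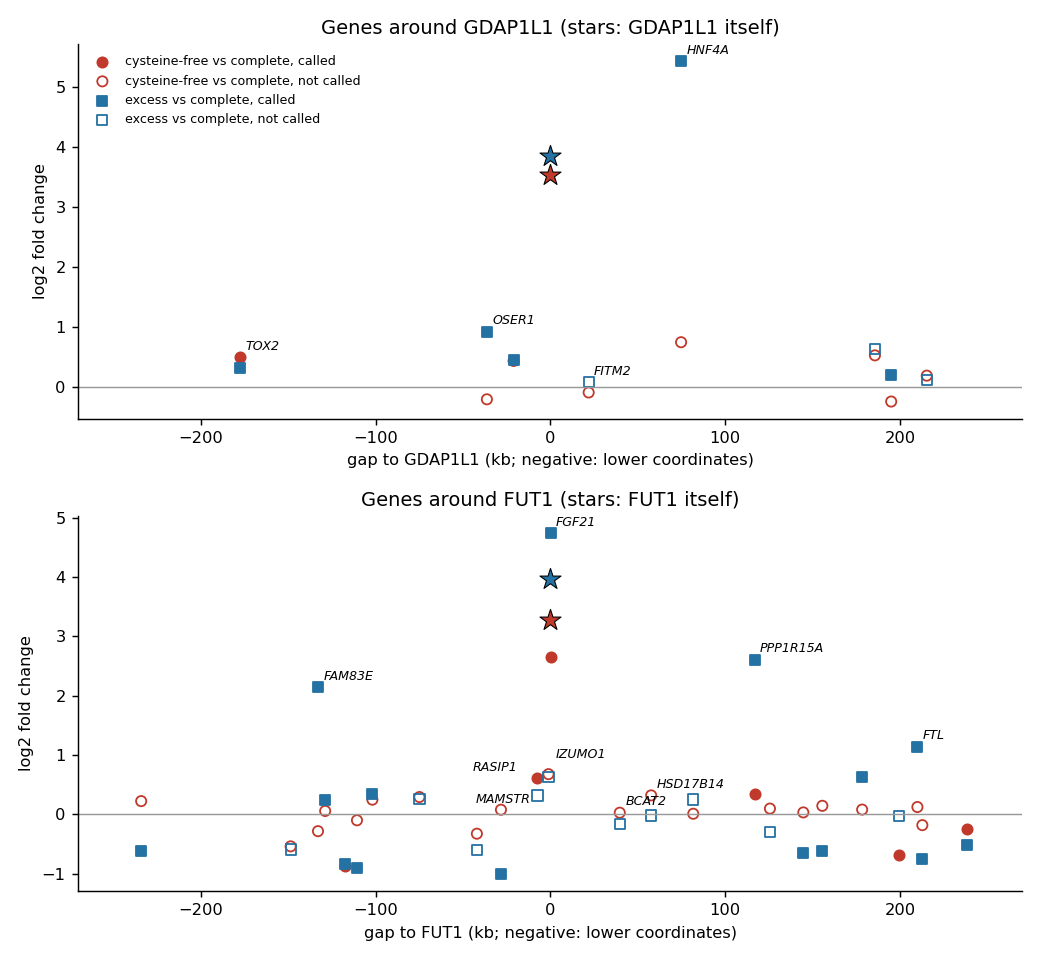
Log2 fold change against complete medium (y axis) of each tested gene within 250 kb, by its gap to GDAP1L1 (top) or FUT1 (bottom) in kb (x axis); circles are cysteine-free, squares excess medium, filled symbols mark calls (adjusted p not above 0.01), and stars are GDAP1L1 and FUT1 themselves. Next to FUT1, FGF21 stands high in both media (2.65 and 4.74), while around GDAP1L1 only HNF4A in excess medium (5.43) rises past 2-fold.

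The other fucosyltransferases did not rise as a family with FUT1. Of 12 genes, 10 were tested, and their median log2 difference was -0.01 without cysteine and 0.05 in excess, against 0.00 and 0.01 over all genes. Without cysteine 1 was called, against 15.9% of all genes: FUT11, which fell by 0.62 on the log2 scale (SE 0.11, adjusted p = 0.00107), a call lost without cysteine-free replicate 1 (0.0292) or 2 (0.0256). In excess 3 were called, against 46.0% of all genes, so neither count stood above the background. FUT3, the Lewis enzyme, which acts on structures that FUT1 or FUT2 can make, rose by 2.35 (SE 0.31, adjusted p = 6.26e-06). Its normalized counts were 29.6 and 22.9 without cysteine, 4.20, 8.65, 13.2 and 11.0 in complete medium, and 46.2, 45.6, 50.4 and 50.1 in excess. These 3 groups did not overlap and stood in the same order as those of FUT1, at much lower levels, but the difference without cysteine, 1.49 (SE 0.49), was not called (adjusted p = 0.0377). FUT6 rose by 1.74 (SE 0.50, adjusted p = 0.00717) from 1.05 to 7.41 normalized counts in complete medium to 11.9 to 18.8 in excess, and its call was lost without complete replicate 1 (0.0208) or 4 (0.0152) or any excess library (0.0144 to 0.0287). FUT10 fell by 0.34 on the log2 scale (adjusted p = 0.00642), a call lost without complete replicate 1 (0.0156) or 2 (0.0302) or excess replicate 1 (0.02), 3 (0.021) or 4 (0.0271).

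The supply of GDP-fucose, the donor that every fucosyltransferase uses, gave a mixed picture. Without cysteine 2 of the 9 genes of the fucose supply and fucosidase list were called, against 15.9% of all genes. GMDS, which catalyzes the first step from GDP-mannose, rose in both media. Its normalized counts were 1583 and 1835 without cysteine, 1080, 913, 1115 and 1050 in complete medium, and 1588, 1736, 1579 and 1741 in excess. Starved and excess libraries overlapped each other and lay above every complete library. The increases were 0.72 (SE 0.09, adjusted p = 9.77e-05) and 0.68 (SE 0.07, adjusted p = 1.34e-07), the former at an adjusted p of 0.011 without cysteine-free replicate 2. SLC35C1, the Golgi transporter of GDP-fucose, fell by 0.41 on the log2 scale (adjusted p = 0.0039) without cysteine, and its call was lost without cysteine-free replicate 1 (0.0829) or 2 (0.0236) or complete replicate 1 (0.0161).

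In excess medium, 8 of these 9 genes were called, 2 higher and 6 lower, against 46.0% of all genes, with a median of -0.40 against 0.01. FUOM, the fucose mutarotase of the salvage route, fell by 2.36 on the log2 scale (SE 0.10, adjusted p = 5.94e-12), from 702 to 791 normalized counts in complete medium to 127 to 175. Without cysteine it was measured at 784 and 806, a difference of 0.11 (adjusted p = 0.377). FPGT, which joins salvaged fucose to GTP, fell by 0.90 (adjusted p = 5.15e-07), and FUCA1, the lysosomal fucosidase, fell by 0.67 (adjusted p = 6.29e-08). The salvage genes FUOM and FPGT were thus lowest in the medium where FUT1 was highest.

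Among 11 enzymes that build the chains FUT1 acts on or that cap its product, 7 were tested. B3GNT2, which extends poly-N-acetyllactosamine, was the only one called without cysteine, where 15.9% of all genes were. It fell by 0.46 on the log2 scale (adjusted p = 0.00283). That call was lost without cysteine-free replicate 1 (0.019) or 2 (0.0636) or complete replicate 1 (0.0123) or 2 (0.0125). In excess 3 were called and all were higher, a share below the 46.0% of all genes. B3GALT5, which makes type 1 chains, rose by 2.41 (SE 0.59, adjusted p = 0.00201) from 0 to 6.58 normalized counts to 14.8 to 31.5, and by adjusted p (0.0128) the call was lost without excess replicate 2. Without cysteine it stood at 13.7 and 14.2, a difference of 2.01 (adjusted p = 0.0849). B4GALT1, which makes type 2 chains, rose by 0.80 (SE 0.04, adjusted p = 1.01e-10), and B3GNT5, which starts lacto-series glycolipids, by 0.31 (adjusted p = 0.00067). ABO, whose A and B enzymes use the product of FUT1, was at 0 to 8.72 normalized counts in every library and was not tested.

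The genes of mitochondrial fission and fusion, with which GDAP1 is grouped, had a median of -0.07 without cysteine and -0.01 in excess over the 16 genes, all tested. Without cysteine 5 were called, against 15.9% of all genes. GDAP1 was the only one higher, and INF2, an actin regulator of fission, and the fusion genes OPA1, MFN1 and MFN2 were lower. INF2 fell by 0.37 (adjusted p = 0.000821), OPA1 by 0.33 (adjusted p = 0.00178) and MFN1 by 0.30 (adjusted p = 0.00892). Without cysteine-free replicate 2 the adjusted p was 0.0368 for INF2, 0.0219 for OPA1 and 0.148 for MFN1, and without replicate 1 it was 0.051 for OPA1 and 0.0394 for MFN1. OPA1 was also lost without complete replicate 2 (0.0107), and MFN1 without complete replicate 1 (0.0298), 2 (0.022) or 4 (0.0108). In excess 10 were called, 3 higher and 7 lower, against 46.0% of all genes. OMA1, the protease that cleaves OPA1 under stress, fell by 1.10 on the log2 scale (SE 0.08, adjusted p = 4.49e-09), and it was the only one of the 10 past 2-fold. MFN1 fell by 0.49 (adjusted p = 6.24e-07) and INF2 by 0.39 (adjusted p = 1.53e-06). Reads on mitochondrial genes made up 4.51 to 5.05% of a complete library, 5.15 to 5.71% of a cysteine-free library and 0.117 to 0.146% of an excess library, and the part this had in these differences was not tested.

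Glutathione transferases, whose fold GDAP1L1 and GDAP1 share, gave different calls in the 2 media. Of 15 genes, 14 were in the table and 10 were tested. Without cysteine 3 were called, all higher, against 15.9% of all genes, with a median of 0.26 over the 10. In excess 8 were called, all lower, against 46.0% of all genes, with a median of -0.97. The medians of all genes were 0.00 and 0.01. GSTO2 rose by 0.98 (SE 0.13, adjusted p = 9.5e-05) without cysteine, with 509 and 543 normalized counts against 227 to 300.4 in complete medium, a call lost when low genes were not filtered out (0.0189). In excess it fell by 0.98 on the log2 scale (SE 0.11, adjusted p = 1.12e-06), to 118 to 146. GSTZ1 and GSTM2 rose by 0.45 (adjusted p = 0.00223) and 0.32 (adjusted p = 0.00742) without cysteine. Both calls were lost without cysteine-free replicate 1 (0.0256 and 0.0292) or 2 (0.0575 and 0.149), and that of GSTM2 also without complete replicate 1 (0.0186) or 2 (0.0298). GSTM1, GSTM2 and GSTM4 fell in excess by 1.43, 1.27 and 1.26 (adjusted p = 3.42e-09, 2.11e-11 and 5.23e-08). These mu-class genes are close copies of each other. Reads may thus be lost or placed on the wrong copy, and the single values of these genes are uncertain. GSTM3 and GSTO1 lay below complete medium in both others, at -0.28 and -0.25 without cysteine (adjusted p = 0.0116 and 0.0368, not called) and -0.18 and -0.41 in excess (0.00747 and 1.77e-05). No glutathione transferase was called higher in both media.

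Genes of the integrated stress response, in contrast, were high in the same media as GDAP1L1 and FUT1. Of 21 genes on a list of ATF4 targets and other stress genes, 20 were called without cysteine and 21 in excess, all higher, against 15.9% and 46.0% of all genes. At least 2-fold changes were 12 and 18, against 2.10% and 10.1%, and the medians were 1.05 and 1.88, against 0.00 and 0.01. The list includes FGF21 and PPP1R15A but neither GDAP1L1 nor FUT1. NUPR1, a small chromatin-associated stress protein, had levels close to those of FUT1 in complete medium, with normalized counts of 82.8 to 97.5 (median 93.4). It stood at 1017 and 1023 without cysteine (log2 3.46, SE 0.13, adjusted p = 2.8e-09) and at 950 to 1133 in excess (3.49, SE 0.09, adjusted p = 8.68e-15). DDIT4, an inhibitor of mTORC1, and CHAC1 rose by 2.02 (adjusted p = 1.43e-09) and 2.00 (adjusted p = 3.91e-07) without cysteine. Unlike GDAP1L1 and FUT1, DDIT4 was higher without cysteine (mean 6985) than in excess (mean 4362), as were PHGDH, PSAT1 and STC2. The other genes of the list had higher means in excess. CEBPG stood at 6123 and 6819 normalized counts without cysteine, 3523 to 3862 in complete medium and 10946 to 11637 in excess.

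GDF15 and TRIB3 of this list were raised mainly in excess medium, unlike GDAP1L1. GDF15, a stress hormone, was the exception without cysteine, where it was measured at 33.0 and 36.0 normalized counts against 25.2 to 46.9 in complete medium (log2 difference -0.02, SE 0.32, adjusted p = 0.977). In excess it stood at 1324 to 1472, an increase of 5.30 (SE 0.16, adjusted p = 6.78e-14). TRIB3, a pseudokinase that restrains ATF4, rose by 3.32 in excess (SE 0.05, adjusted p = 1.8e-17) and by 1.08 without cysteine (SE 0.08, adjusted p = 1.05e-06). The list was written with earlier results of these libraries known, so its direction is no independent evidence.

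**Figure D3:**
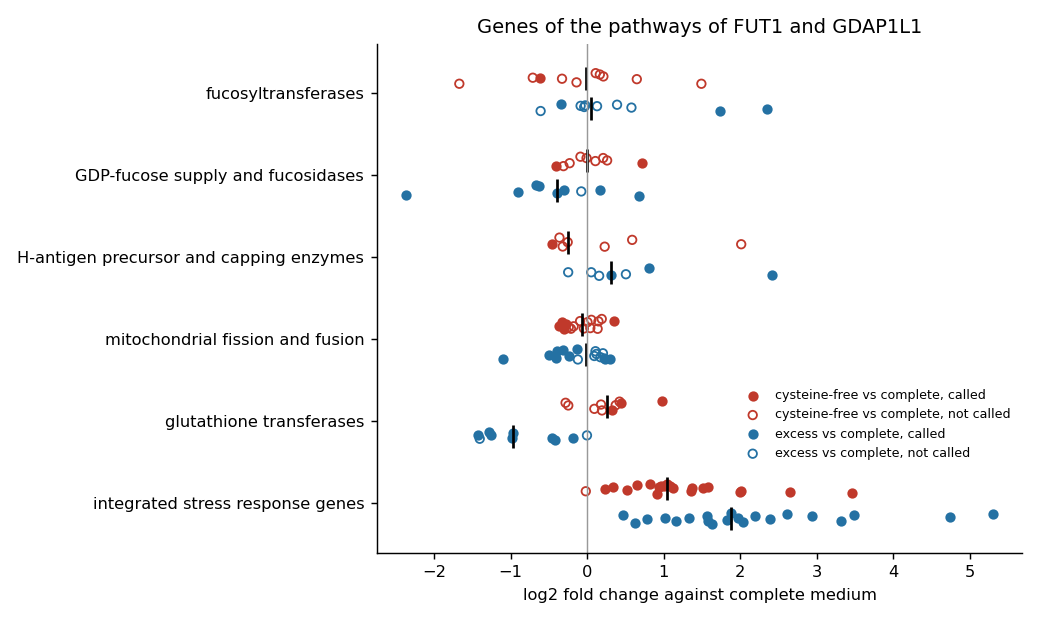
Log2 fold change against complete medium (x axis) of each tested gene on 6 lists (rows); red is cysteine-free, blue excess medium, filled points mark calls (adjusted p not above 0.01), and black bars are medians. The fucosyltransferases, drawn without FUT1, centre near 0, most of the glutathione transferases lie to the left in excess medium, and the integrated stress response genes lie to the right in both.

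The genes most like each of the 2 were ranked by Pearson r of log2(value + 1) over the 10 libraries, among 14522 named genes with a mean of 100 or more without cysteine. For GDAP1L1 these were NHSL1 (r = 0.997), an actin regulator, MTHFD2 (0.997), a mitochondrial folate enzyme and ATF4 target, DTL (0.996), a subunit of a cullin ligase acting in S phase, ZBED3 (0.996) and C1orf226 (0.995). For FUT1 they were INHBE (0.994), an activin beta subunit gene, LOXL4 (0.993), a lysyl oxidase, ADM2 (0.992), a peptide hormone of the adrenomedullin family, CARS1 (0.992) and ASNS (0.991). FUT1 was number 37 for GDAP1L1, and GDAP1L1 number 21 for FUT1 (r = 0.985). These correlations describe 10 libraries in 3 media, which every gene shares, and carry no test.

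Likeness was in shape, not in size. MTHFD2 was measured at 20075 and 21000 normalized counts without cysteine, 9872 to 10984 (median 10518) in complete medium and 21234 to 22701 (median 22370) in excess, so its 2 flanking groups stood close to 2-fold above complete medium. The log2 differences of the 5 genes like GDAP1L1 were 0.56 to 1.49 without cysteine and 0.64 to 1.55 in excess, given without a test because the genes were ranked on these same libraries. INHBE came nearest to FUT1 in size as well. It stood at 852 and 845 without cysteine, 125, 133, 127 and 188 in complete medium, and 1356, 1420, 1436 and 1488 in excess. Like FUT1, it was highest in excess and lowest in complete medium, and among complete libraries it too was highest in replicate 4. Its log2 differences were 2.58 (SE 0.16) and 3.33 (SE 0.11), with -0.75 (SE 0.06) between starved and excess cells.

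ASNS, the textbook target of amino acid deprivation, stood at 18702 and 19894 without cysteine, 7372 to 7749 (median 7453) in complete medium and 21925 to 22748 (median 22654) in excess. Its log2 differences were 1.36 (SE 0.05) and 1.58 (SE 0.03). ADM2 and CARS1 had the same order of groups, with 1.65 and 0.70 without cysteine and 1.96 and 0.92 in excess. LOXL4 differed by 1.13 and 1.22. Of the 10 genes, 3 hold the CARE element printed for them earlier: C1orf226, CARS1 and ASNS, out of 9 with a promoter window. Each of the 10 shares some exon bases with another annotated gene, from 5 bases for DTL to 2415 for ASNS. The authors dropped reads that fell on multiple genes, so counts of the 10 may be too low. In contrast, the paralogs had an r of -0.32 (GDAP1) with GDAP1L1 and -0.51 (FUT2) with FUT1.

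The libraries held 34836014 to 61654861 reads on genes. All 6 markers listed for HEK293T cells were present. Without cysteine 3 of the 6 were called, against 15.9% of all genes. PAX2 was higher, past 2-fold (1.26, adjusted p = 0.000506). LIN28B (-0.48, adjusted p = 0.000116) and NEFM (-0.29, adjusted p = 0.000814) were lower. In excess 3 were called, against 46.0% of all genes, with KRT18 and VIM higher and XRCC5 lower. Since GDAP1L1 is known from neural tissue and FUT1 from red cells and endothelium, markers of those cells were also summed. The 6 neuronal markers summed to 2069 to 2155 normalized counts without cysteine, 1874 to 2647 in complete medium and 2042 to 2121 in excess, and these ranges overlapped. Single markers moved in opposite directions under these sums. In excess 2 of the 5 tested were called, against 46.0% of all genes. SYT1 was higher (0.50, adjusted p = 7.41e-06) and SYP lower (-0.38, adjusted p = 0.0072). Without cysteine 0 of the 5 were called, against 15.9% of all genes. Endothelial markers summed to 10.3 to 17.4 without cysteine, 13.7 to 21.9 in complete medium and 18.0 to 33.7 in excess. The excess range thus reached higher but overlapped that of complete medium. Neither of the 2 endothelial genes tested was called in excess, where 46.0% of all genes were. The erythroid markers summed to 58.1 to 104 without cysteine, 122 to 129 in complete medium and 75.0 to 140 in excess, most of it HBA1. None of these sums lay above complete medium without cysteine. In direct comparison of starved and excess cells, 48.0% of all genes were called.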

How the data were processed

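The values are deposited signal values, 1 per gene and library. Per the study's methods and the submitters' processing notes, the authors aligned paired reads to GRCh38 with STAR 2.7.10b, assigned them to Ensembl genes, and scaled each gene's read count with DESeq2 size factors, 1 per library. Per the methods, reads that fell on more than 1 gene were dropped. The strand setting and Ensembl release are not given in the sources used here. All values in each library (100.0%) were whole multiples of 1 step (tolerance 0.01), from which reads were recovered: 34836014 to 61654861 per library, median 40850703. At this depth the number of libraries limits precision, except for genes near the floor.

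A gene entered the fits if it reached 10 in 3 or more of the 10 libraries (29045 genes, of which 20258 with a symbol). Log2(value + 1) was fitted with limma 3.58.1 (lmFit, eBayes with trend) in R 4.3.3, 2-sided, on the 2 groups compared, adjusted over these genes by Benjamini-Hochberg, and calls had an adjusted p no larger than 0.01. Fold changes are on this scale, where the pseudocount draws low values together and a difference of mean logs need not equal the log ratio of means. The fit was tested on simulated data. Exact permutation tests of the paralogs and Poisson intervals used scipy 1.17.1.

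Symbols came from GENCODE release 44 (42165 of 78894 IDs). Named are GDAP1L1, FUT1, their paralogs, the 3 nearest protein-coding genes on each side and any called neighbour of at least 2-fold within 250 kb, the 4 largest called changes of each list, and the 5 genes most alike. ABO, MFN2, FUT8, CEBPG, PHGDH, PSAT1, STC2, DDIT4 in excess, CHAC1's promoter and the uncalled values of named list genes were added after values were seen. The 2 genes, the lists and the tests were chosen with earlier results of these data known. Every pair of replicates differed by more than sampling noise (chi-square per degree of freedom 3.53 to 14.7). Alternatives were pseudocounts of 0.5 and 10, no filter, a minimum of 50, equal totals, all 3 groups in 1 fit, a replicate block, count models of the recovered reads (edgeR 4.0.16 with its quasi-likelihood test, DESeq2 1.42.0), and leaving out each library.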

Additional observations from a re-analysis of the deposited data

Results flagged for a closer look

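Of 110 groups of 4 libraries examined for the genes named, 5 had a library far from the other 3 by Dixon's criterion, and chance gives about 1 in 20. Next to FUT1, IZUMO1 stood at 45.6 normalized counts in excess replicate 2, against 73.2 to 77.3 in the other excess libraries. INHBE, the gene most like FUT1, stood at 188 in complete replicate 4, against 125 to 133, and FUT1 was highest in the same library. Among the enzymes that build H-antigen chains, B3GALT5 stood at 31.5 in excess replicate 2, against 14.8 to 17.0. FUCA1 stood at 702 in excess replicate 3, against 659 to 664. GSTM4 stood at 313 in complete replicate 3, against 417 to 422.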

How the results depend on the processing

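Over 9 other settings and the leave-one-out fits, GDAP1L1 and FUT1 kept the direction of every difference. In excess against complete medium, values were judged by sign and threshold only, not by the replicate SD. The complete libraries chose the genes, so staying past the threshold there is no test of them. Over the settings the values in excess medium ranged from 3.40 to 3.95 for GDAP1L1 and from 3.83 to 4.07 for FUT1. Differences of cysteine-free medium were judged by the replicate SD. By these rules 92 of 94 values were unmoved. The other 2 were for GDAP1L1: 3.09 for cysteine-free against complete medium with a pseudocount of 10, and -0.40 for cysteine-free against excess medium with equal totals. Leaving out single libraries gave 3.42 to 3.64 and 3.10 to 3.43 for GDAP1L1 and FUT1 without cysteine. Genes called fell without the filter from 4618 to 738 (cysteine-free against complete) and from 13954 to 8864 (cysteine-free against excess). More genes without signal enter the fit there, and GDAP1 was then not called without cysteine (0.35, adjusted p = 0.0532, range over alternatives and left-out libraries up to 0.0927). Other calls without cysteine that were lost without the filter were those of FGF21 (adjusted p = 0.161), RASIP1 (0.0778), PPP1R15A (0.0339), TOX2 (0.0105), FUT11 (0.0736), GMDS (0.0295), SLC35C1 (0.0423), B3GNT2 (0.0146), INF2 (0.0263), OPA1 (0.0458), MFN1 (0.0865), GSTO2 (0.0189), GSTZ1 (0.038), GSTM2 (0.0719) and CHAC1 (just past 0.01), and in excess those of FUT6 (0.0389), FUT10 (0.0467) and B3GALT5 (0.032). With equal totals MFN1 (0.0132) without cysteine and FUT10 (0.0505) in excess were lost, and RASIP1 in excess passed (0.00628). With all 3 groups in 1 fit FUT6 was lost (0.0134) and FUT3 passed without cysteine (0.00466). GSTM1 passed without cysteine with edgeR (0.00855), DESeq2 (0.00697), the replicate block (0.00197) and without complete replicate 4 (0.00558). The count of 4618 ranged from 978 to 6300 over left-out libraries: 1198 without cysteine-free replicate 1, 978 without replicate 2, 2968 without complete replicate 1 and 2795 without complete replicate 2. The other counts ranged from 11958 to 13691 (excess against complete) and 11593 to 13334 (cysteine-free against excess). GDAP1 without cysteine ranged from 0.29 to 0.41. FUT2 ranged from -1.12 to 0.47 without cysteine, from -0.86 to -0.45 in excess, and from -0.52 to 1.08 in the direct comparison, where it was called without cysteine-free replicate 2 (adjusted p = 0.0037). The other reversals were of uncalled values near 0: MAMSTR (-0.032 to 0.18 over left-out libraries) and BCAT2 (-0.073 to 0.11) without cysteine, HSD17B14 in excess (0.082 with equal totals, -0.12 to 0.13) and GDF15 without cysteine (0.0063 with equal totals, 0.0012 with the replicate block, -0.17 to 0.12). The causes were not tested. With equal totals the median of all genes in excess medium was 0.12 rather than 0.01, and 61.8% rather than 50.3% of called genes were higher. The share of the direct comparison moved from 49.2% to 40.0%.

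Same-numbered libraries did not deviate together (correlations from -0.0281 to 0.0392), so no sign of pairing by replicate number was seen. Pairing is not excluded, since deviations of 2 cysteine-free libraries mirror each other. The labels also do not say which cultures shared a day. With a replicate block 6532, 13392 and 12393 genes were called in the 3 comparisons. Without cysteine, OSER1 (-0.30, adjusted p = 0.00483), IZUMO1 (1.23, 0.0012), FUT3 (1.93, 0.00741) and B3GALT5 (3.00, 0.0038) then passed, and RASIP1 (0.50, 0.0116) did not. Complete replicates 3 and 4 have no cysteine-free counterpart, so these block differences rest on replicates 1 and 2 of each group. Alternatives for the list genes, genes most alike and list counts were added after the data were seen. Called genes of the stress list without cysteine numbered 14 to 20, and those of the mitochondrial list 0 to 1 higher and 0 to 7 lower. Without the filter every other list and both neighbourhoods had 0 calls without cysteine. Without cysteine-free replicate 1 or 2, calls there numbered 0 and 0 for the neighbours of either gene, the fucosyltransferases and the H-antigen chain enzymes, 1 and 0 for the fucose supply list, 1 and 0 for the mitochondrial list, and 1 and 1 for the glutathione transferases. Without complete replicate 1 or 2 the mitochondrial list had 3 and 2, and without complete replicate 3 the fucose supply list had 4 and the GDAP1L1 neighbours and the fucosyltransferases 2 each. In excess, the fucosyltransferases had 1 call without excess replicate 1, 3 or 4 and with a minimum of 50.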
